A study of Mus musculus with 49 samples.

Results

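The 10 genes described here encode BMP ligands (Bmp2, Bmp4 and Bmp7), transcriptional targets of the pathway (Id1, Id2, Id3 and Id4) and its inhibitors (Smad6, Smad7 and Bambi). They were taken from the deposited table by matching Ensembl identifiers to these symbols, and all 10 were found among 46078 gene identifiers. The series profiled mouse hepatocytes that lose their identity in culture and the cells derived from them, by 3'-end RNA sequencing with unique molecular identifiers (UMIs, short random tags that mark single molecules), in 49 libraries of 16 conditions. All samples were labelled wild type and C57BL/6J, and the livers came from male mice of 10 weeks of age. Freshly isolated hepatocytes (FH) were separated from non-parenchymal cells by centrifugation, and others were kept in monolayer on collagen with EGF at 20 ng/mL for 3 h or for 1, 2, 4, 7 or 14 days.

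Expandable dedifferentiated hepatocytes (dediHeps) were passaged under that same monolayer condition. They were also placed in aggregation culture, in which they re-differentiate towards hepatocytes, or embedded in Matrigel as spherical organoids (dediHep-SOs). Both cultures used media other than the monolayer medium, so they differ from monolayer dediHeps in medium as well as in form. Budding organoids (dediHep-BOs) were made from dediHeps that carried a Cdx2-expressing retrovirus, and Wnt3a and CHIR99021 were later removed from their medium. The 2 dediHep organoid conditions therefore differ in a transgene and in medium as well as in shape. Intestinal references were spherical organoids from fetal intestinal progenitor cells of embryonic day 13.5 (FIPC-SOs) and budding organoids from adult intestinal stem cells (ISC-BOs). Chemically induced liver progenitors (CLiPs) are hepatocytes dedifferentiated without serum by Y-27632, A-83-01 and CHIR99021, of which A-83-01 blocks the TGF-β type I receptor. Hepatocytes were also cultured for 7 days with verteporfin at 0.3 µM, an inhibitor of the Hippo effector YAP, or with its solvent DMSO. Each condition had 3 libraries, except dediHeps with 5, ISC-BOs with 4, and verteporfin and DMSO with 2 each. The labels do not say that the libraries of a condition came from separate animals, so the p-values cover the spread between these libraries, which may be technical in part.

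BMPs are secreted proteins that bind pairs of type I and type II receptor kinases, which phosphorylate Smad1, Smad5 and Smad9, and these enter the nucleus with Smad4 to switch on genes such as the Id family. Id proteins bind E proteins and keep them from DNA, while Smad6 and Smad7 block receptor signalling inside the cell and Bambi is a decoy receptor without kinase activity. In adult liver the pathway is best known for controlling hepcidin, the iron hormone encoded by Hamp, and in the intestine BMP signals oppose the stem cell state. The media that the paper names for the dediHep-derived and the intestinal organoids contained Noggin, which traps BMPs outside the cell. The monolayer medium was not described as containing it. The study asked whether BMP signals act on Cdx2, an intestinal transcription factor, in dediHeps, and the present comparisons ask where the ligands and targets were expressed.

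Library totals ran from 861047 to 3872936 UMIs (median 1976760), so that 3 counts corresponded to 0.775 to 3.48 CPM. Levels are given as CPM, the counts scaled to library size with TMM factors over the 49 libraries. "Called" means an FDR below 0.1 together with a log2 fold change beyond 2 in either direction, in edgeR's quasi-likelihood test. Summed over all libraries, Id2 had 58117 counts, Id1 20334, Id3 7519, Bmp2 4259, Bmp7 1465, Bmp4 1334, Smad7 1001 and Smad6 426. Bambi (87 counts) and Id4 (55 counts) lay near the detection floor and were in no fit except those run without a low-count filter. The rank correlation of dediHep replicate 1 was higher with CLiP replicate 2 (0.906) than with any other dediHep library (0.903). In all, 8 libraries were closer to one of another condition than to their own, among them FH replicate 1 (0.908 with a 3-h library, 0.903 within FH), and all 3 day-7 libraries, of which replicate 1 had the widest gap (0.965 with a day-14 library, 0.941 within day 7). The FH libraries held markers of non-parenchymal cells, with a summed level of 199 to 337 CPM for 8 liver endothelium genes, against 0 to 0.947 CPM in dediHeps. In such bulk samples, fewer cells of a type and less RNA per cell cannot be told apart.

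Promoters are shown for Bmp4 and Smad6, because both were higher in dediHeps than in FH and both windows lie wholly outside the annotated gene. Each is the 250 bases before the RefSeq start on the minus strand of GRCm38.p6, at chr14:46390670-46390919 for Bmp4 and chr9:64022060-64022309 for Smad6. Capitals mark matches to GTCT, the Smad4-binding element, on either strand. The 6-letter GC-rich Smad1/5 box GGCGCC was also searched on both strands and was found in neither.
Bmp4 promoter: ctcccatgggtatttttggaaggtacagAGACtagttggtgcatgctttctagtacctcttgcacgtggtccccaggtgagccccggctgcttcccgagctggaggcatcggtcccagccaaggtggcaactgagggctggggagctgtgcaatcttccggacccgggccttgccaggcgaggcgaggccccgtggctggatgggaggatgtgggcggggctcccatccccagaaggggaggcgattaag
Smad6 promoter: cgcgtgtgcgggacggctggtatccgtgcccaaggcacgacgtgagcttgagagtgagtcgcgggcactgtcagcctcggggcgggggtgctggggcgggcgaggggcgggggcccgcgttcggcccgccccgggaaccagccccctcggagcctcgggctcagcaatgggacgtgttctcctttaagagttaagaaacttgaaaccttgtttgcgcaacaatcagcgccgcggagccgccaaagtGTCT
Each promoter held 1 match to GTCT. Of 32851 RefSeq promoter windows of this length, 82.9% held at least 1 match to GTCT and 9.59% held GGCGCC. In the windows of the other members with an entry, Id3 had 2 matches to GTCT, Id2 had 1 to each motif and Id4 had 1 to GGCGCC and none to GTCT. A match describes the letters and not a bound site.

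Id1, a target used as a readout of BMP signalling (chromosome 2, 152736251 to 152737410, plus strand, GRCm38), had its highest condition mean in dediHeps. Its level was 14.2, 15 and 51.6 CPM in the FH libraries and 11.5, 1.1 and 4.64 CPM after 3 h of culture. It then stood at 58.1, 84.2 and 142 CPM on day 1, and at 236, 208 and 301 CPM on day 14. The 5 dediHep libraries held 715, 637, 565, 688 and 541 CPM. All 5 lay above every other library of the series, and the day-14 libraries lay above every FH library.

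Against FH, Id1 fell at 3 h by 2.31 on the log2 scale (SE 0.60, FDR 0.0168). That call was lost without FH replicate 3 (log2 fold change -1.40, FDR 0.186) or 3-h replicate 2 (-1.79, FDR 0.0855), and the other Id1 calls of the time course kept their side of both thresholds in each alternative. Id1 was higher on day 1 at an FDR of 0.00892 with a log2 fold change of 1.69 (SE 0.48), short of the fold threshold, which it passed without FH replicate 3 (2.62, FDR 0.000611). It rose 5.27-fold by day 2 (FDR 0.000422), 5.80-fold by day 4, 6.60-fold by day 7 and 8.95-fold by day 14 (log2 fold change 3.16, SE 0.50, FDR 1.71e-05). In dediHeps it was 21.3-fold above FH (4.42, SE 0.51, FDR 5.66e-05), and with a correction for UMI collisions the log2 fold change was 4.74. The dediHeps also exceeded the 14-day hepatocytes, by 1.30 on the log2 scale (SE 0.25, FDR 0.0125), a difference below the fold threshold. These comparisons share the FH libraries.

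**Figure D1:**
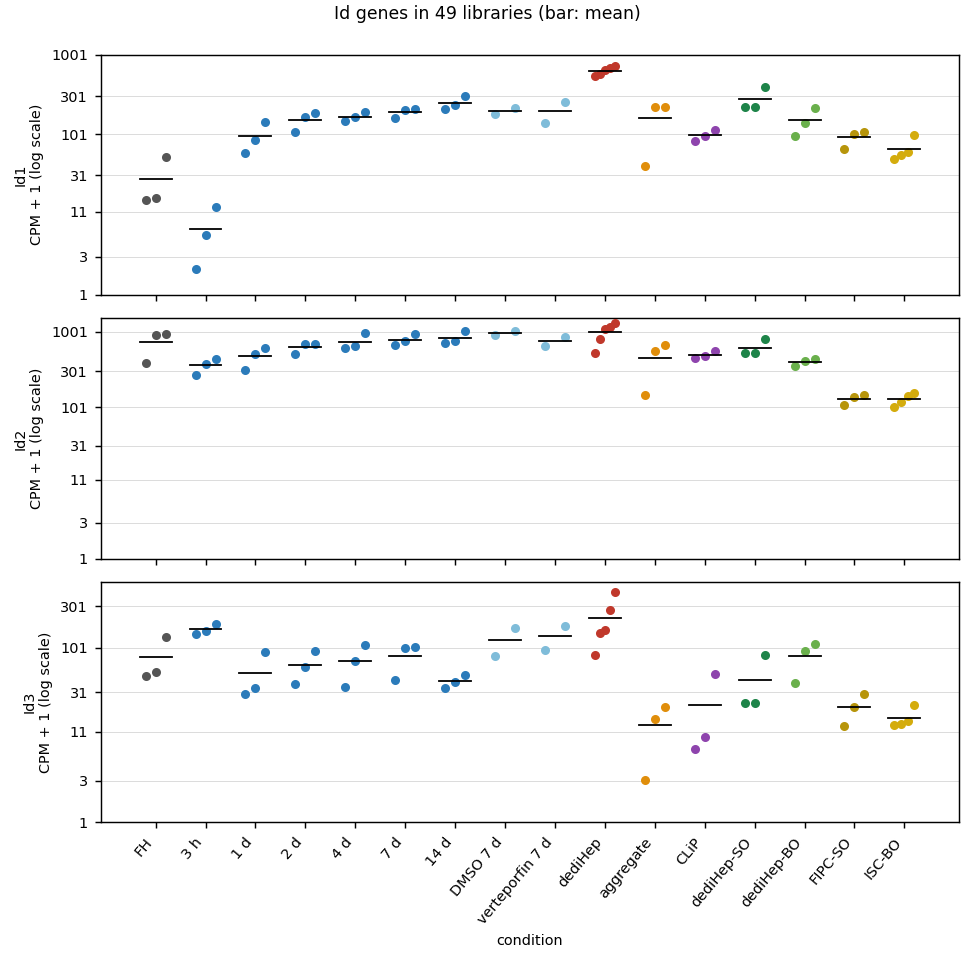
Levels of Id1, Id2 and Id3 in each of the 49 libraries (CPM + 1, log scale), with the mean of each condition as a bar and conditions along the horizontal axis. The 5 dediHep libraries, at 541 to 715 CPM, are the highest points of the Id1 panel, whereas the Id2 points of dediHeps (526.2 to 1325 CPM) overlap those of FH (383 to 929 CPM).

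Id2, which is expressed in hepatocytes of the adult liver, changed less (chromosome 12, 25093799 to 25097140, minus strand). It stood at 896, 383 and 929 CPM in FH and at 1325, 1149.5, 799.7, 526.2 and 1093 CPM in dediHeps, and the ranges overlapped. The log2 fold change between them was 0.30 (SE 0.41, 95% interval -0.50 to 1.1, FDR 0.605), was -0.0062 without FH replicate 2, and was 0.73 after correction for UMI collisions (FDR 0.25). Counts of Id2 reached 2646 in 1 library, while 4096 UMI sequences exist, so its higher values are compressed. At 3 h Id2 was lower than in FH at an FDR of 0.0471, with a log2 fold change of -1.06 (SE 0.34), under the fold threshold.

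Id3 (chromosome 4, 136143497 to 136145755, plus strand) followed neither pattern. It was 133, 52.0 and 46.5 CPM in FH, 186, 156 and 144 CPM at 3 h and 47.5, 34.0 and 40.1 CPM on day 14. In dediHeps the values were 442, 147, 270, 158 and 81.4 CPM, each above all 3 day-14 libraries. Id3 rose 5.34-fold from day 14 to dediHeps (log2 fold change 2.42, SE 0.53, FDR 0.0206), a call lost without day-14 replicate 2 (2.28, FDR 0.131) or dediHep replicate 1 (1.99, FDR 0.00831). Against FH it passed the FDR alone (1.40, SE 0.60, FDR 0.0886), and it was called without FH replicate 1 (2.06, FDR 0.0381). No difference from FH passed the FDR at any of the 6 culture times. Id4 did not exceed 3.44 CPM in any library and had 0 counts in the day-2 and day-4 libraries, which allows up to 0.425 and 0.457 CPM.

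Bmp2, a ligand made in liver mainly by sinusoidal endothelium (chromosome 2, 133552159 to 133562885, plus strand), was high in FH and fell on plating. Its level was 112, 145 and 112 CPM in FH and 24.2, 17.7 and 12.8 CPM at 3 h. It was 56.6, 61.7 and 21.9 CPM on day 2, 15.5, 12.0 and 5.87 CPM on day 7 and 14.3, 41.6 and 16.1 CPM on day 14. No cultured monolayer library reached the lowest FH value. Bmp2 was called lower at 3 h (log2 fold change -2.78, SE 0.58, FDR 0.00407), day 1 (-2.50, FDR 0.00109), day 4 (-2.39, FDR 0.00115), day 7 (-3.53, SE 0.57, FDR 2.97e-05) and day 14 (-2.37, FDR 0.00115). On day 2 it passed the FDR alone (-1.47, FDR 0.0301).

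The 8 liver endothelium markers were lower after plating, as Bmp2 was, but did not follow it at every time. Their summed level was 199 to 337 CPM in FH, 65.0 to 122 CPM at 3 h, 35.1 to 176 CPM on day 1, 18 to 140 CPM on day 2, 9.88 to 51.7 CPM on day 4, 3.59 to 42.6 CPM on day 7 and 4.69 to 9.18 CPM on day 14, and their part in the change of Bmp2 was not tested. Mean Bmp2 was 18.2 CPM at 3 h, 46.7 CPM on day 2, 11.1 CPM on day 7 and 24.0 CPM on day 14. In dediHeps 6 of the 8 markers had no count, and Bmp2 was still measured at 17.9, 58.3, 30.2, 28.8 and 3.31 CPM. This was 4.82-fold below FH (-2.27, SE 0.61, FDR 0.0126), and without dediHep replicate 5 the fold fell short of the threshold (-1.98, FDR 0.00508). In dediHep-SOs, where the endothelial sum was 0.925 to 2.98 CPM, Bmp2 was 140, 102 and 56.9 CPM, so its range overlapped that of FH.

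**Figure D2:**
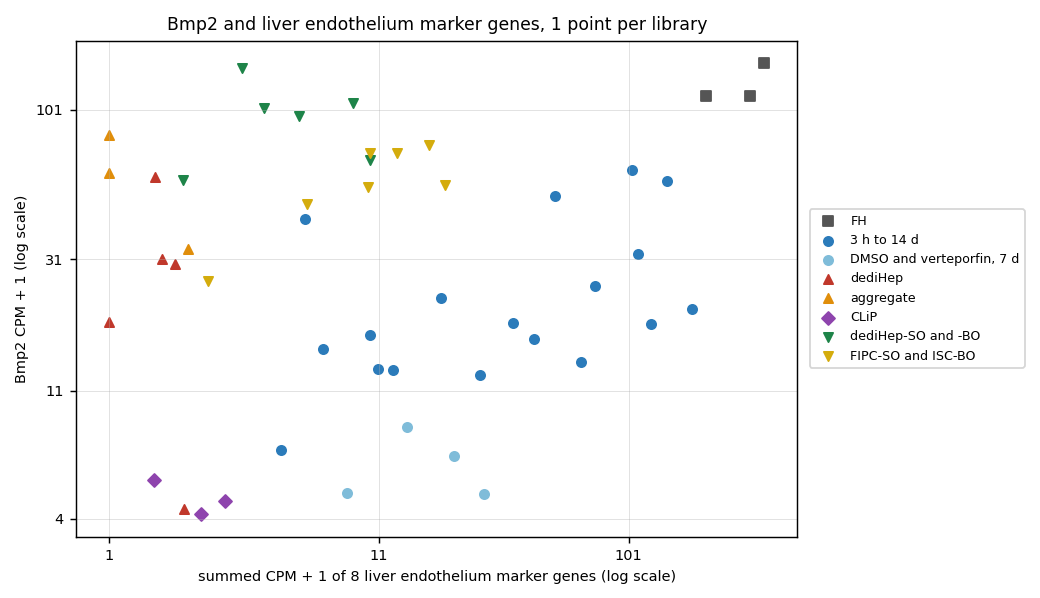
Bmp2 level (CPM + 1, log scale, vertical axis) against the summed level of 8 liver endothelium marker genes (CPM + 1, log scale, horizontal axis), with 1 point per library and colours for the conditions. FH libraries lie at the upper right (112 to 145 CPM of Bmp2), and the dediHep organoids reach 56.9 to 140 CPM of Bmp2 with endothelial sums of 0.925 to 9.19 CPM.

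Bmp4, a ligand known from mesenchymal and mesothelial cells (chromosome 14, 46383520 to 46390669, minus strand), rose between day 14 and the dediHep state. It was 4.72, 1.37 and 2.07 CPM in FH and did not differ from FH at an FDR below 0.1 at any of the 6 culture times, at which it ranged from 0 to 16.5 CPM. On day 14 it was 3.21, 2.93 and 3.44 CPM, and in dediHeps 44.2, 33.7, 39.3, 77.0 and 15.6 CPM. The dediHep libraries all exceeded the day-14 libraries, by 12.8-fold (log2 fold change 3.68, SE 0.57, FDR 0.00397), and this call held in each alternative. The stellate cell and fibroblast list, of 9 genes, summed to 59.6 to 297 CPM on day 14 and to 1.01 to 2.80 CPM in dediHeps, with Col3a1, Lrat, Lum and Pdgfrb at 0. The mesothelium list summed to 289 to 446 CPM on day 14 and 438 to 1130 CPM in dediHeps, and this sum was mostly Msln (mean 778 CPM in dediHeps), whereas Upk3b averaged 4.77 CPM and Wt1 14.9 CPM there. That list was at 0 in all FH libraries, and a sum carried mostly by Msln does not identify mesothelial cells. The part of either list in the Bmp4 level was not tested.

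Bmp7, a ligand of kidney and other epithelia (chromosome 2, 172868012 to 172940321, minus strand), was 3.54, 0 and 7.23 CPM in FH. It was 1.73, 0 and 0 CPM on day 1, and 0, 0 and 0.549 CPM on day 4, a single count. It was called lower than FH at both times (log2 fold change -2.57, FDR 0.0732, and -4.17, FDR 0.0122). For day 4, the 10 counts of FH against 1 gave a 25.8-fold ratio with a 95% counting interval of 3.66 to 1118. The day-1 call was lost without FH replicate 1 (FDR 0.122) or 3 (FDR 0.426), without day-1 replicate 2 (FDR 0.192) or 3 (FDR 0.200), and in the fit of all 49 libraries (FDR 0.144), and the day-4 call without FH replicate 3 (-3.17, FDR 0.136).

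The level of Bmp7 returned to 6.07, 8.21 and 4.59 CPM on day 14 and was 22.4, 26.1, 6.35, 25.3 and 121 CPM in dediHeps. Replicate 5 stood far above the other 4, and replicate 3 lay within the day-14 range. It was called 6.05-fold higher than on day 14 (2.60, SE 0.84, FDR 0.0736). The call was lost on omitting day-14 replicate 1 (2.53, FDR 0.221), 2 (2.81, FDR 0.228) or 3 (2.48, FDR 0.196), with folds of similar size, and the fold was under the threshold without dediHep replicate 5 (1.61, FDR 0.0879). Bmp4 and Bmp7 were also called higher than in FH, and for Bmp7 that call was lost without FH replicate 2 (2.75, FDR 0.107).

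**Figure D3:**
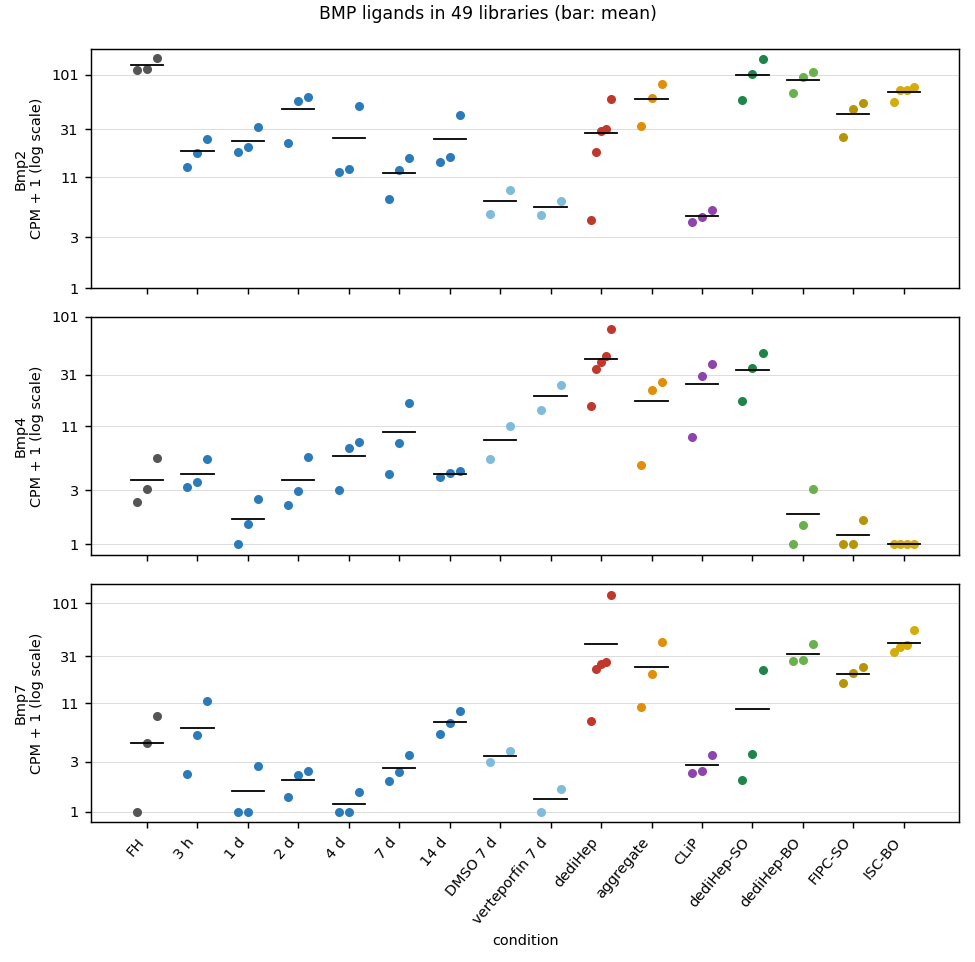
Levels of Bmp2, Bmp4 and Bmp7 in each of the 49 libraries (CPM + 1, log scale), with the condition mean as a bar and conditions along the horizontal axis. Bmp2 is high in FH (112 to 145 CPM) and in dediHep organoids, Bmp4 in dediHeps (15.6 to 77.0 CPM), CLiPs and dediHep-SOs, and Bmp7 in the budding organoids and in dediHep replicate 5 (121 CPM).

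The inhibitory Smads were measured at lower counts. Smad7, which binds activated receptors (chromosome 18, 75367529 to 75395935, plus strand), was 2.36, 6.84 and 6.20 CPM in FH, 10.8, 13.1 and 13.2 CPM on day 1 and 13.4, 24.4 and 13.4 CPM on day 7. Every library from day 1 to day 14 exceeded the 3 FH libraries. It passed the FDR alone at each of these 5 times, with log2 fold changes from 1.17 on day 1 (SE 0.45, FDR 0.0494) to 1.65 on day 7 (SE 0.44, FDR 0.00442). In dediHeps it was 41.9, 25.6, 6.65, 12.6 and 16.6 CPM, which overlapped FH and passed the FDR alone (1.89, SE 0.70, FDR 0.0538). It was called without a low-count filter (2.01, FDR 0.0322), and without FH replicate 2 (2.13, FDR 0.0997), dediHep replicate 3 (2.13, FDR 0.0223) or dediHep replicate 4 (2.03, FDR 0.049).

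Smad6, the inhibitor more specific to BMP receptors (chromosome 9, 63953076 to 64022059, minus strand), stayed between 0 and 5.52 CPM in FH and the monolayer time course and was not tested there. It was 24.6, 8.04, 17.5, 8.68 and 9.47 CPM in dediHeps, all above the 3 FH values of 4.72, 4.10 and 2.07 CPM. Against FH it passed the FDR alone (1.80, SE 0.62, FDR 0.0407), and it was called without FH replicate 1 (2.06, FDR 0.066). Against day 14 it was called 5.43-fold higher (2.44, SE 0.80, FDR 0.0747), and this was lost without day-14 replicate 1 (FDR 0.192), 2 (FDR 0.224) or 3 (FDR 0.12) or dediHep replicate 3 (FDR 0.112). Bambi (chromosome 18, 3507923 to 3516404, plus strand) was 8.39 CPM, 15 counts, in dediHep replicate 1 and at most 1.01 CPM in the other 4 dediHep libraries, and it had 0 counts on day 14 and in dediHep-SOs, which allows up to 0.558 and 0.412 CPM.

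**Figure D4:**
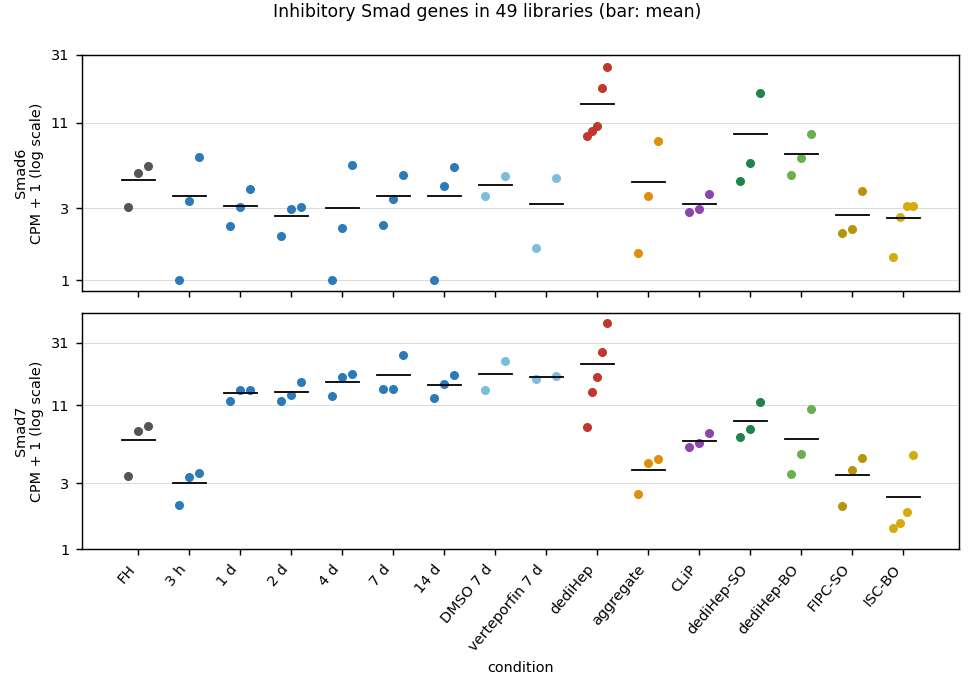
Levels of Smad6 and Smad7 in each of the 49 libraries (CPM + 1, log scale), with the condition mean as a bar and conditions along the horizontal axis. Smad6 reaches 8.04 to 24.6 CPM in dediHeps, and Smad7 is at 10.8 to 24.4 CPM from day 1 to day 14 against 2.36 to 6.84 CPM in FH.

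Called members are set here beside all genes tested. Of 7 members tested at each time, 2 were called at 3 h, when 6.91% of all genes were, then 2 on day 1 (17.4% of all genes), 1 on day 2 (21.3%), 3 on day 4 (23.8%), 2 on day 7 (25.9%) and 2 on day 14 (29.5%). At any fold, 3, 4, 3, 4, 3 and 3 of the 7 passed the FDR at these times, against 18.5%, 39.9%, 44.3%, 47%, 49% and 55.6% of all genes. In dediHeps against FH 4 of 8 were called (25.7% of all genes) and against day 14 also 4 of 8 (5.93%), while at any fold 7 (45.1% of all genes) and 5 (17.8%) passed the FDR. The median log2 fold change of the 8 members tested was 1.85 against FH, where it was 0.08 over all genes, and 1.86 against day 14, again beside 0.08. Members that failed the filter are not in these medians. Bmp4, Bmp7, Smad6 and Smad7 had 7, 10, 9 and 13 counts over the FH libraries and passed the filter through dediHeps. On day 14, Bmp4, Smad6 and Bmp7 had 17, 13 and 35 counts and also passed through dediHeps. Such members can enter only as rises, which pushes these counts and medians up, so the medians are descriptive.

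Other pathway genes were taken from a list of 51, of which 29 were tested over the time course. On day 14, 6 were called higher and 6 lower, when 29.5% of all genes were called. In dediHeps against FH, of 25 tested, 2 were called higher and 5 lower, beside 25.7% of all genes. Hamp, the hepcidin gene, averaged 3495 CPM in FH, 278 CPM on day 14 (log2 fold change -3.67, SE 0.34, FDR 9.21e-09) and 53.2 CPM in dediHeps (-6.17, SE 1.57, FDR 0.00959). Hjv, the hemojuvelin co-receptor that hepcidin control needs, averaged 153 CPM in FH, 22.9 CPM on day 2, 0.238 CPM on day 14 and 0.0947 CPM in dediHeps, and was called lower from day 2 onward. Hamp and Id1, both known BMP targets, moved in opposite directions in dediHeps and on day 14. Smad9, a receptor-activated Smad, averaged 20.8 CPM in FH and 5.18 CPM in dediHeps (-2.08, SE 0.57, FDR 0.0144), and Smad1 and Smad5 were not called at any time.

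Among secreted antagonists, Fst (follistatin) was 57.4 to 118 CPM at 3 h, against 0 to 4.72 CPM in FH and 1.02 to 2.02 CPM on day 1 (5.41, SE 0.71, FDR 3.98e-05 at 3 h). Another ligand, Bmp8b, was listed at 0 in the FH and 3-h libraries and averaged 104 CPM on day 1, 163 CPM on day 2, 15.3 CPM on day 14 and 0.318 CPM in dediHeps. Its close paralog Bmp8a was also at 0 in FH and averaged 42.4 CPM on day 1 and 23.9 CPM in dediHeps, and how reads shared between the pair were assigned is not known. Bmp6, the other hepatic ligand of hepcidin control, had no count in the FH libraries. Among receptors none was called in the time course or in dediHeps, and the type II receptor Acvr2a was lower than in FH at an FDR below 0.1 at all 6 times.

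The TGF-β branch was read from 10 further genes, of which 9 were tested over the time course and 5 were called higher and 1 lower on day 14, beside 29.5% of all genes. Tgfbi, a TGF-β-induced matrix protein gene, averaged 40.3 CPM in FH and 3.94 CPM at 3 h, and was called lower. Cdx2 had no count in any library of FH, monolayer hepatocytes or CLiPs, and was 2.24 to 119 CPM in dediHeps and 69.5 to 105 CPM in dediHep-SOs.

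In aggregates, Id3, Smad6 and Smad7 were lower than in dediHeps. In the fit without a block, 3 of 8 members tested were called (9.51% of all genes) and 4 passed the FDR at any fold (24.4%). Id3 was 20.2, 14.3 and 2.04 CPM in aggregates, every value below the lowest dediHep value of 81.4 CPM (log2 fold change -4.19, SE 0.78, FDR 0.00733). Smad7 was 3.23, 3.47 and 1.53 CPM, again below all dediHep libraries (-2.87, SE 0.68, FDR 0.0207), and both calls held in each alternative. Smad6 was 7.27, 2.61 and 0.509 CPM (-2.06, SE 0.73, FDR 0.0815), a call lost without dediHep replicate 1 (FDR 0.111) or 3 (FDR 0.116) or aggregate replicate 2 (FDR 0.225) or 3 (FDR 0.233). The median over the 8 was -1.60, and -0.07 over all genes. Bmp4, Id3, Smad6 and Smad7 had 108, 62, 16 and 15 counts over the aggregate libraries and passed the low-count filter through dediHeps. Such members can enter only as falls, which raises the count called and pushes this median down.

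Id1 was 218, 223 and 39.2 CPM in aggregates, below every dediHep library. It missed the fold threshold without a block (-1.97, SE 0.49, FDR 0.0257) and was called with the culture of origin as a block (-2.37, FDR 0.0179), 3 of the cultures being named in both groups' labels, and with the UMI correction (-2.20, FDR 0.021). It was also called without dediHep replicate 3 (-2.01) or 5 (-2.02), or aggregate replicate 1 (-2.26) or 2 (-2.27). Hepatocyte markers moved the other way, from 841 to 3975 CPM in dediHeps to 5653 to 9232 CPM in aggregates, and Hjv averaged 35.4 CPM there. Aggregate replicate 3 had the lowest Id1, Id2, Id3, Smad6 and Smad7 of the 3.

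Against FH, 3 of 5 members tested in aggregates were called (16.6% of all genes) and 4 passed the FDR at any fold (35.7%). Bmp7, with 10 counts over the FH libraries, passed the low-count filter through aggregates and could enter only as a rise. Id3, with 62 counts over the aggregate libraries, passed through FH and could enter only as a fall. Id1 was 5.56-fold higher (2.48, SE 0.70, FDR 0.0227), although aggregate replicate 3 lay within the FH range, and Id3 was lower (-2.80, SE 0.72, FDR 0.0147). Bmp7 was 42.0, 20.0 and 9.17 CPM in aggregates, above all FH libraries (2.50, SE 0.81, FDR 0.0414), and the call was lost without FH replicate 1 (FDR 0.107) or 2 (FDR 0.106) or aggregate replicate 1 (FDR 0.125).

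Organoids from dediHeps carried Bmp4 transcripts in the spherical form and hardly any in the budding form, at 6 counts over 3 libraries. Against dediHeps, 1 of 8 members was called in dediHep-SOs (8.76% of all genes) and 3 passed the FDR at any fold (16.1%). The called gene was Id3, at 22.5, 22.3 and 82.4 CPM (-2.40, SE 0.66, FDR 0.0396), which was lost without dediHep replicate 1 (-1.96), SO replicate 1 (FDR 0.174) or SO replicate 2 (FDR 0.176). Id1 was 222, 222 and 391 CPM, below all dediHep libraries, and passed the FDR alone (-1.19, SE 0.27, FDR 0.0171). Bmp2 was higher at the FDR alone (1.84, SE 0.63, FDR 0.0908), and was called without dediHep replicate 2 (2.29, FDR 0.0508) or SO replicate 3 (2.12, FDR 0.0791). SO replicate 3 had the highest Id1, Id3, Smad6 and Bmp7 and the lowest Bmp2 and Bmp4 of the 3.

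Bmp4 was 34.4, 47.6 and 17.1 CPM in dediHep-SOs and 0.485, 0 and 2.09 CPM in dediHep-BOs, a difference of -5.10 on the log2 scale (SE 0.73, FDR 0.000873) that held in each alternative. It was 1 of 8 members called in that comparison (11.3% of all genes), and 4 passed the FDR at any fold (40.5%). With 6 counts over the BO libraries, Bmp4 passed the low-count filter through SOs and could enter only as a fall. Bmp7, with 58 counts over the SO libraries, passed through BOs and could enter only as a rise. Bmp7 was 2.57, 0.992 and 22.2 CPM in SOs and 27.2, 27.3 and 39.7 CPM in BOs, without overlap, and passed the FDR alone (1.92, SE 0.79, FDR 0.0931). It was called without SO replicate 3 (4.08, FDR 3.18e-05). The sum of the 3-gene mesothelium list, mostly Msln in dediHeps, was also lower, at 12.6 to 37.5 CPM in BOs against 593 to 1009 CPM in SOs. By contrast, stellate cell and fibroblast markers summed to 0.964 to 1.49 CPM in SOs and 4.59 to 205 CPM in BOs. The part of either list was not tested. The Cdx2 level was 172 to 345 CPM in BOs, and whether transgene transcripts were counted in it is not known.

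Against the intestinal references, Bmp4 and Id2 were higher in the spherical and Id3 in the budding dediHep organoids. Between the spherical organoids 2 of 7 members were called (8.91% of all genes) and 5 passed the FDR at any fold (23.5%). Bmp4 and Smad7, with 2 and 21 counts over the FIPC-SO libraries, passed the low-count filter through dediHep-SOs and could enter only as rises. Bmp4 had 240 counts in dediHep-SOs and 2 in FIPC-SOs, a ratio of 141 with a 95% counting interval of 38.5 to 1167 (log2 fold change 6.85, SE 0.80, FDR 0.000498). Id2 was 526, 526 and 795 CPM in dediHep-SOs and 137, 106 and 146 CPM in FIPC-SOs (2.21, SE 0.28, FDR 0.000747), with a fold just under the threshold without SO replicate 3 (1.99, FDR 0.000217). Id1, Smad7 and Bmp2 passed the FDR alone at log2 fold changes of 1.56, 1.55 and 1.2. One FIPC-SO library held 380 CPM of stellate cell and fibroblast markers and the others 3.85 and 11.7 CPM.

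Between the budding organoids 1 of 5 members was called (3.05% of all genes) and 3 passed the FDR at any fold (10.2%). Id3 was 92.2, 38.8 and 109 CPM in dediHep-BOs and 12.4, 12.1, 13.6 and 21.0 CPM in ISC-BOs (2.46, SE 0.38, FDR 0.00365), and this held in each alternative. Id2, at 437, 406 and 355 CPM against 140, 116, 153 and 102 CPM, passed the FDR alone (1.68, SE 0.21, FDR 0.00117), as did Id1 (1.22, SE 0.33, FDR 0.0569). No Bmp4 count was found in ISC-BOs, which allows up to 0.337 CPM, against 6 counts in dediHep-BOs. Those 6 lay mostly in 1 library, at 2.09 CPM, with the others at 0 and 0.485 CPM, and Bmp4 was not tested there. Bmp7 was 37.3, 54.4, 39.0 and 33.2 CPM in ISC-BOs and overlapped dediHep-BOs. The change from spherical to budding form was also tested for a difference between the dediHep-derived and the intestine-derived organoids: 0 of 8 members were called by edgeR (9.45% of all genes, and 18.3% at any fold), 0 had an unadjusted p below 0.05, and DESeq2 called 0. Without a low-count filter 1 was called, and without dediHep-SO replicate 3, 2 were. The intestine-derived change sets fetal against adult cells. The paper describes fetal SO formation with Wnt3a and CHIR99021 and crypts kept without them, so the medium may differ there too. The dediHep-derived change includes the Cdx2 transgene and another medium. Form alone was therefore not tested. For Id1 the difference was -0.37 (95% interval -1.33 to 0.58), and for Bmp4 it could not be estimated because ISC-BOs had no count.

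In CLiPs, Bmp2, Bmp7, Id1, Id3 and Smad6 were lower than in dediHeps, whereas Bmp4 overlapped. Of 8 members tested against dediHeps 5 were called (3.04% of all genes, and 4.69% at any fold). The median log2 fold change of the 8 was -2.63, beside -0.03 over all genes. Bmp7, Smad6, Bmp2 and Smad7 had 18, 21, 32 and 45 counts over the CLiP libraries and passed the low-count filter through dediHeps. Such members can enter only as falls, which raises the count called and pushes this median down. Id1 was 81.9, 95.4 and 114 CPM in CLiPs, below all dediHep libraries (log2 fold change -2.67, SE 0.28, FDR 0.00488), in each alternative. Bmp7 was 1.48, 2.52 and 1.36 CPM (-4.37, SE 0.98, FDR 0.0479), Smad6 1.97, 2.73 and 1.81 CPM (-2.59, SE 0.57, FDR 0.0468) and Id3 5.92, 49.6 and 8.59 CPM (-3.33, SE 0.83, FDR 0.0683). Bmp2 was 4.44, 3.15 and 3.62 CPM (-2.86, SE 0.77, FDR 0.0908), and dediHep replicate 5, at 3.31 CPM, lay within that range.

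These 4 calls were lost when single libraries were left out, by the FDR and not by the fold. Without CLiP replicate 1 the log2 fold change was -4.27 for Bmp7 (FDR 0.209), -2.53 for Smad6 (FDR 0.202), -2.91 for Id3 (FDR 0.231) and -3.01 for Bmp2 (FDR 0.27). In the same order, without CLiP replicate 3 the FDR was 0.127, 0.117, 0.164 and 0.196. Id3 was also lost without dediHep replicate 2 (FDR 0.115) or 3 (FDR 0.124), and Bmp2 without CLiP replicate 2 (FDR 0.146) or dediHep replicate 2 (FDR 0.177), 3 (FDR 0.156) or 4 (FDR 0.122). Bmp4 was 7.89, 29.2 and 38.0 CPM in CLiPs and overlapped dediHeps (-0.72, FDR 0.57), which does not show that the levels were equal. Atoh8, another BMP target, was lower in CLiPs than in dediHeps (-3.43, SE 0.65, FDR 0.0259).

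Against FH, 2 of 5 members tested in CLiPs were called (24.5% of all genes) and 3 passed the FDR at any fold (37%). Bmp4, with 7 counts over the FH libraries, passed the low-count filter through CLiPs and could enter only as a rise. Bmp2, with 32 counts over the CLiP libraries, passed through FH and could enter only as a fall. Bmp4 was 9.39-fold higher (3.23, SE 0.79, FDR 0.0141) and Bmp2 was 31.3-fold lower (-4.97, SE 0.46, FDR 0.000249), with no overlap of libraries for either. Id1 passed the FDR alone (1.91, SE 0.57, FDR 0.0321), and was called without a low-count filter (2.02, FDR 0.00345), and without FH replicate 3 (2.77, FDR 0.0114) or CLiP replicate 1 (2.05, FDR 0.0612). The median over all genes was 0.18 in this comparison and fell by 0.14 with the other normalization, so these folds are relative to that median.

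Verteporfin gave no called member among the 5 tested (0.269% of all genes were called by edgeR, and 0.375% at any fold), DESeq2 called 0, and 1 member had an unadjusted p below 0.05. Bmp4 was 14.2 and 24.1 CPM with verteporfin and 4.61 and 10.1 CPM with DMSO, without overlap (1.38, SE 0.47, FDR 0.417). Id1 was 138 and 255 CPM with verteporfin and 180 and 217 CPM with DMSO, and the 95% interval of its log2 fold change was -0.57 to 0.60.

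**Figure D5:**
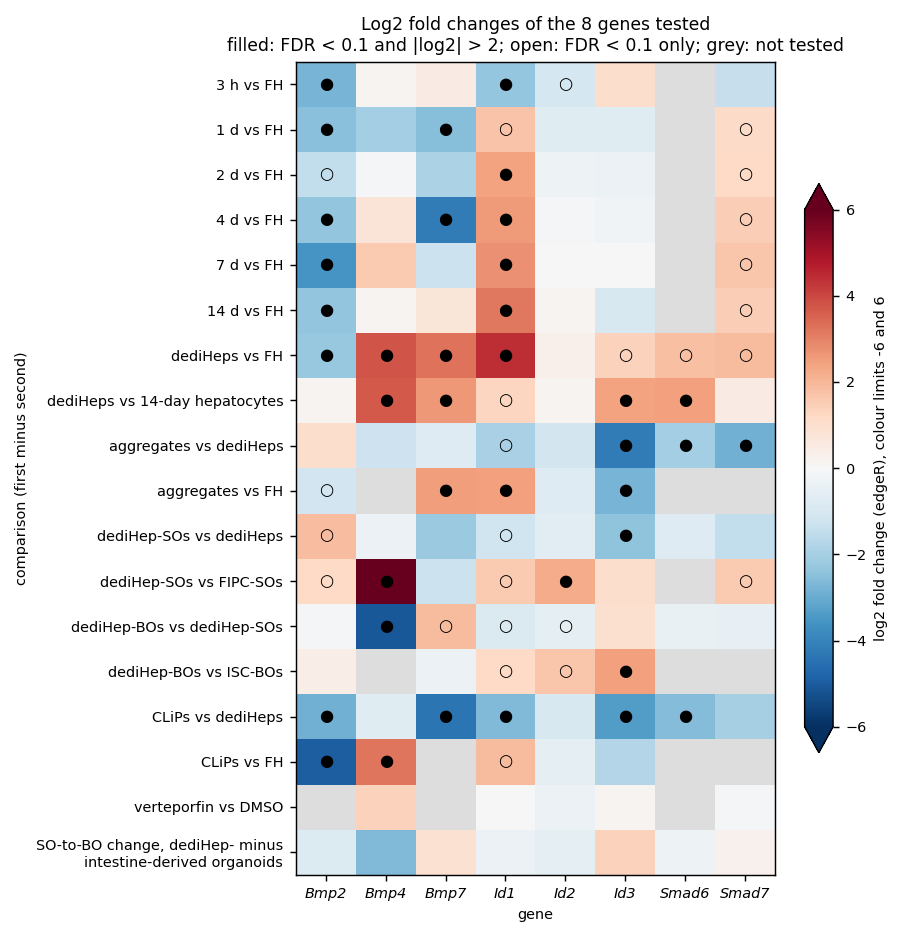
Log2 fold changes from edgeR for 8 genes (columns) in 18 comparisons (rows, first condition minus second), with red for higher and blue for lower, colours ending at 6 in each direction and grey for genes not tested. Filled circles mark an FDR below 0.1 with a log2 fold change beyond 2 and open circles an FDR below 0.1 alone, and the Id1 column is red from day 1 to dediHeps while Bmp2 is blue.

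Ordered by condition mean, Id1 ran from 629 CPM ± 75.5 (SD, n = 5) in dediHeps to 5.74 CPM ± 5.27 (SD, n = 3) at 3 h, a 110-fold span, and Id2 from 979 CPM in dediHeps to 128 CPM in ISC-BOs, a 7.67-fold span. Id3, Smad6 and Smad7 also had their highest mean in dediHeps, with spans of 18-fold, 8.72-fold and 14.8-fold. Bmp2 was highest in FH and lowest in CLiPs (32.9-fold), and Bmp7 was highest in ISC-BOs (41.0 CPM). The dediHep mean of 40.2 CPM rested on replicate 5 and was 20.0 CPM without it, below the 31.4 CPM of dediHep-BOs and the 23.7 CPM of aggregates. Of 15 steps between neighbours in each order, libraries were fully separate at 2 for Id1, at 1 for Id2 and at 2 for Smad7, and overlapped at every step for the other members.

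Over the 16 condition means, the closest pair of members was Id2 with Smad7 (Pearson r of log2(CPM + 1) 0.831), and Id1 with Id3 stood at 0.021 and Bmp4 with Bmp7 at -0.116. Among 14373 genes, those most like Id1 were Pramef8 (0.917), Fem1b (0.913) and Clic1 (0.908), those most like Bmp4 were 1600012H06Rik (0.907), Col4a5 (0.907) and Hrct1 (0.904), and those most like Smad7 were Asap1 (0.932), Ccn2 (0.928) and Mgea5 (0.9). For Bmp7 the first was Clrn3 (0.902), for Id2 Phf20l1 (0.923), for Id3 Kbtbd2 (0.876), for Smad6 Kmt5b (0.855) and for Bmp2 Smarcd2 (0.841). These values describe conditions that share cultures and depth and carry no test.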

How the data were processed

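Libraries were made by 3'-end RNA sequencing with unique molecular identifiers (CEL-seq2), and the authors deposited 1 table of UMI counts per gene for the 49 libraries. These counts were not normalized. The submitters' processing notes name bcl2fastq 2.20, Bowtie2 2.3.1, HTSeq 0.6.0 and the genome build GRCm38, without further settings used here. Symbols and positions came from GENCODE M21, and promoter windows from RefSeq on GRCm38.p6. Groups were taken from the sample titles and characteristics.

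Genes with enough counts (filterByExpr, minimum count 10, minimum total 15) were tested in edgeR 4.0.16 (R 4.3.3) with TMM scaling and the quasi-likelihood F-test. FH and all times of the culture time course were fitted together. The difference of organoid changes was fitted on the dediHep-derived and intestine-derived organoids together. Every other comparison was fitted on the libraries of its own conditions only. The p-values were adjusted by Benjamini-Hochberg over all genes tested. A gene was called at an FDR below 0.1 with an absolute log2 fold change above 2. The scripts were tested on simulated data. Alternatives were DESeq2 1.42.0, RLE scaling, no low-count filter, 1 fit of all 49 libraries, other thresholds, replicate blocks and leaving out each library. A correction of counts for UMI collisions, since 4096 UMI sequences exist, was chosen after seeing the data. Counting intervals of ratios and floors of 3 counts cover counting error only. Intervals of log2 fold changes were built from the SE of the edgeR fit, which includes the spread between libraries. These can be narrower than the F-test implies, and an interval can exclude no change where the unadjusted p does not.

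All 10 members were named. Of the other pathway genes, at most the 8 called genes with the smallest p per comparison were to be named; Acvr2a, Bmp6, Smad1, Smad5 and the TGF-β genes were named after their values were seen. The genes most like a member were the 3 with the highest Pearson correlation over condition means, among genes reaching 5 CPM. The members and lists were chosen with earlier results of these data known. Deviations from the group means were correlated within replicate numbers. Aggregates and the dediHep cultures named in both labels correlated in all 3 pairs (0.183, 0.248 and 0.359), so this pairing was taken as real and its block is given where it changes a call. The main values of aggregates against dediHeps are from the fit without that block, which lost 0 calls and gained Id1. No 2 libraries of a condition agreed within sampling noise. The table held 0 unused columns. Some genes of the pathway lists are not reported here.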

Additional observations from a re-analysis of the deposited data

Results flagged for a closer look

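Groups of 4 or more libraries were searched for a single library standing far from the rest. Of 20 tested groups of values 5 had one, and chance alone flags about 1 in 20 where values are normally distributed. The CPM values were not transformed, and a group at 0 throughout could not be flagged, so an excess over chance was not shown. Bmp7 in dediHep replicate 5 was 121 CPM against 6.35 to 26.1 CPM in the other 4 dediHep libraries. Bambi in dediHep replicate 1 was 8.39 CPM against 0 to 1.01 CPM in the others. Among ISC-BOs, Id3 stood at 21.0 CPM in replicate 4 against 12.1 to 13.6 CPM, Smad7 at 3.76 CPM in replicate 2 against 0.437 to 0.847 CPM, and Bambi at 1.31 CPM in replicate 4 against 0 in the others. That last one rests on 3 counts, and a library with a count among others at 0 always meets this criterion, so it says nothing.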

How the results depend on the processing

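Of 38 calls of a member in a comparison, 22 were kept under every alternative run and 16 were lost without 1 library. Over all 1126 alternative values, 1054 kept direction and side of the thresholds, 48 lost and 23 gained a call, and 1 changed direction. That was Id2 in dediHeps against FH, at -0.0062 without FH replicate 2, and up to 0.50 without other libraries. DESeq2, RLE scaling and no low-count filter lost 0 calls, and the UMI correction lost 0 of the 36 calls it could test, Bmp7 on days 1 and 4 having failed the low-count filter there, the fit of all 49 libraries lost 1 and the replicate block 3. The counts below are of called members. On day 1 the count was 1 with the UMI correction and 1 in the fit of all 49 libraries. In dediHep-SOs against dediHeps it was 2 with DESeq2, 2 in the fit of all libraries, 2 without a low-count filter and 2 at an FDR under 0.05 with a fold over 1. Without the filter it was 4 in dediHep-SOs against FIPC-SOs, 2 in dediHep-BOs against dediHep-SOs and 1 in the difference of organoid changes. At an FDR under 0.05 with a log2 fold change over 1 it was 3 on day 2, 2 in dediHep-BOs against ISC-BOs and 3 in CLiPs against dediHeps. At any fold it was 4 on day 1, 3 on day 2, 7 in dediHeps against FH, 3 in dediHep-SOs against dediHeps, 5 against FIPC-SOs, 4 in dediHep-BOs against dediHep-SOs and 3 against ISC-BOs. With a replicate block it was 2 in dediHep-BOs against dediHep-SOs, where Bmp7 was gained (log2 fold change 2.63), and 4 in CLiPs against FH. The block also lost Bmp7 in dediHeps against FH (1.92) and day 14 (1.46) and Smad6 in CLiPs (FDR 0.143). Apart from the aggregates, replicate numbers did not pair the libraries throughout: same-numbered correlations ran from -0.594 to 0.638 in the time course. With 2 libraries each, the 2 pairs of verteporfin and DMSO share 1 correlation by construction (0.445). That 1 value cannot show whether these libraries were paired, and their main test was unpaired. Culture names also linked dediHep-SOs to dediHeps, at correlations of -0.511, 0.013 and 0.048, and that block changed no call there. Leaving out 1 library in turn gave 1 to 2 at 3 h, 1 to 2 on day 1, 1 to 2 on day 2, 2 to 3 on days 4 and 7, 2 on day 14, 3 to 6 in dediHeps against FH and 1 to 4 against day 14. It gave 2 to 4 in aggregates against dediHeps and against FH, 0 to 3 in dediHep-SOs against dediHeps, 2 to 3 against FIPC-SOs, 1 to 2 in dediHep-BOs against dediHep-SOs, 1 against ISC-BOs, 1 to 5 in CLiPs against dediHeps, 2 to 3 against FH, 0 with verteporfin and 0 to 2 in the difference of organoid changes. The cause of these changes was not tested. Depth limits Smad6, Bambi and Id4, whose levels lie near 3 counts in many libraries.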
